A study of Rattus norvegicus with 174 samples.

Results

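Pdk4 and 7 other genes of the choice between glucose and fatty acids as fuel were followed in rats after a single inhalation of phosphine, a fumigant gas that is toxic, and in rats that breathed air. The other members were Pdk2, Pdk1, Angptl4, Ucp2, Ucp3, Cpt1a and Acadm, so that 8 of the 13439 genes with a probe set of their own were described. Members were found by the gene symbol of the array's annotation, and a gene with several probe sets was represented by the one whose mean across the 174 arrays was highest. The 8 members had 12 probe sets, a pair each for Pdk4, Pdk2, Ucp3 and Cpt1a. The rule that picks probe sets used no measured difference between phosphine and air, but the members were chosen with earlier results of these data known.

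The 33 adult male Sprague-Dawley rats weighed 300 to 400 g and breathed either air or 660 ppm phosphine for 32.2 min in a whole-body chamber. That product of 21252 ppm x min is 0.91 times the median lethal product (LCt50) given in the labels. Brain, heart, kidney, liver, lung and blood were taken 1, 3, 6 or 24 h later and measured on single-colour Affymetrix rat arrays, 174 in all. Groups of solid tissue held 4 rats, or 2 in air at 6 h, and the same animals gave all 5 solid tissues. For blood there were 4 exposed and 4 air animals at 1 and 3 h, 5 and 1 at 6 h, and 2 exposed animals without an air control at 24 h. Rats are named by the numbers in the labels. Air controls were taken at the same hours, no untreated rats or other doses were compared here, and the labels describe no genotype other than that of this outbred stock.

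Pyruvate dehydrogenase admits pyruvate from glucose into the mitochondrial citric acid cycle, and the pyruvate dehydrogenase kinases switch it off by phosphorylation. Pdk4, the kinase isoform known for its rise in fasting and under glucocorticoids, thereby spares glucose while fatty acids are burned. Pdk2 is a widely expressed isoform, and Pdk1 is an isoform known as a target of the hypoxia-inducible factor. Angptl4 encodes a secreted inhibitor of lipoprotein lipase, Cpt1a the liver-type enzyme that commits long-chain fatty acids to mitochondrial import, and Acadm the medium-chain acyl-CoA dehydrogenase of beta oxidation. Ucp2 and Ucp3 encode mitochondrial carriers of the uncoupling protein family, of which Ucp3 is known from skeletal muscle and heart. Pdk4, Angptl4, Ucp3, Cpt1a and Acadm are textbook targets of the peroxisome proliferator-activated receptors (PPARs).

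The 250 bases upstream of the annotated start are shown for the 4 members that changed most or against the others: Pdk4 and Angptl4 in several comparisons, Ucp3 in heart and Acadm in blood. The sequences and starts are those of RefSeq (GRCr8), in which the Angptl4 start used lies 1290 bases inside the outer end of the gene's annotated span, and the Cpt1a start 2279, the Pdk2 start 76 and the Pdk1 start 50 bases. Each is written 5′ to 3′ on the gene's own strand, with capitals for matches to the 5 motifs below.
Pdk4 (chr4:34568330-34568579, minus strand): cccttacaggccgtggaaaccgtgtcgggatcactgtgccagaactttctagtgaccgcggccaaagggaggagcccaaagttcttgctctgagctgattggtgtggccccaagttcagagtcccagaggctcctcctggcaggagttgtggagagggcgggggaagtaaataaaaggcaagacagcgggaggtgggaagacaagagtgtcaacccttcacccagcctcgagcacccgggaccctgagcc
Angptl4 (chr7:15258682-15258931, minus strand): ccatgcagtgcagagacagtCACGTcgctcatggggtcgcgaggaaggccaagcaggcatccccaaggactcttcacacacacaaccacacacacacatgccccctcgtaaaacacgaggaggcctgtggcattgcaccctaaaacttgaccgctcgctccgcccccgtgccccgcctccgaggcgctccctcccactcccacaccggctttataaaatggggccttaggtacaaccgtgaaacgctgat
Ucp3 (chr1:164227660-164227909, plus strand): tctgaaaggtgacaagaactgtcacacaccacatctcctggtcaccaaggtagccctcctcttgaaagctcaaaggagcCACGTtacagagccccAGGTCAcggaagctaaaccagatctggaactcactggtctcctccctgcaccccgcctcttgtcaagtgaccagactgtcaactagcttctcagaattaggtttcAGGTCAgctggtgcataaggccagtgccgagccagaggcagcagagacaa
Acadm (chr2:245542865-245543114, minus strand): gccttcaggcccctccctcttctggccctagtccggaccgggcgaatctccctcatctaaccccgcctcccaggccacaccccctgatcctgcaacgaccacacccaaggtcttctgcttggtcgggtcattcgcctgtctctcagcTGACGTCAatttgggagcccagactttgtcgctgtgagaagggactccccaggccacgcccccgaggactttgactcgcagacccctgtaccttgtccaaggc
The motifs, searched on both strands, were the nuclear receptor motif AGGTCA, the forkhead site GTAAACA, the glucocorticoid receptor motif AGAACA, the hypoxia response core ACGTG and the cyclic AMP response element TGACGTCA, which holds no other of the 5. Of 33469 upstream windows of the same length, 14.1% held AGGTCA, 3.2% GTAAACA, 17.5% AGAACA, 16.6% ACGTG and 1.6% TGACGTCA. The Ucp3 window held AGGTCA at -155 and -50 and ACGTG on the other strand at -171 to -167, counted from the start. The Angptl4 window held ACGTG on the other strand at -230 to -226, and the Acadm window TGACGTCA at -103 to -96. None of the 5 motifs stood in the windows of Pdk4, Pdk1, Ucp2 or Cpt1a, and the Pdk2 window held ACGTG on both strands, overlapping, from -143 to -138. These matches are a description of letters and were set beside the values with the motifs chosen after the sequences were seen.

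Values are log2 signals, so that a difference of 1 is a 2-fold difference. They ran from 1.74 to 14.13 over all arrays, with array medians between 4.16 and 4.64, and the files hold no detection call, so that a level near 3 to 4 cannot be told apart from background here. Levels of different probe sets were not compared. Differences are given as phosphine minus air with ± 1 SE from limma, fitted so that all arrays of 1 tissue share the estimate of the spread. A gene was called at a Benjamini-Hochberg adjusted p (padj) under 0.05 over all 13439 genes. The labels do not say whether rats of a group were exposed together, so p-values measure the spread between these rats. Arrays have no read depth, and the number of rats limits the precision. The tissues are bulk samples, in which fewer cells of a type and less RNA per cell cannot be told apart.

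Each tissue carried its own marker genes on every array: for example the mean of 5 cardiomyocyte genes lay between 11.93 and 12.95 in heart, against a median of 3.38 in the other tissues. Marker genes of a second organ were also high on 11 solid-tissue arrays (8 exposed, 3 air), where their list mean exceeded that tissue's median by 4 log2 or more. They were heart of exposed Rat729 (3 h, hepatocyte genes 8.01 above) and of exposed Rat741 and Rat749 (24 h), kidney of air Rat720 (1 h, hepatocyte genes 5.24 above) and liver of exposed Rat719, Rat730 and Rat741. In lung they were exposed Rat716 (1 h, hepatocyte genes 7.61 above) and, for skeletal muscle genes at 3 h, exposed Rat729 (6.10 above) and air Rat733 (6.91 above) and Rat738 (4.16 above). Member calls in these groups are given with and without these arrays, and those of other genes of fuel use are taken up with their counts. The 3′ minus 5′ signal difference of the array's control probe sets, a measure of RNA integrity that rises as RNA degrades, did not overlap between the groups in brain at 3 h, kidney at 6 h, liver at 1 h and blood at 6 h. In two-sided exact permutation tests the smallest p was 0.0286, the least that 4 against 4 rats allow, and the smallest padj over the 23 comparisons was 0.329.

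Of 184 pairs of a member and a comparison, 16 were called, 15 higher and 1 lower after phosphine, where 1.92% of all pairs of a gene and a comparison were called. As the members were chosen with earlier results of these data known, this count describes them and does not test them as a set. Pdk4 had 8 of the calls, Angptl4 3, Acadm 2, and Pdk1, Ucp3 and Cpt1a 1 each, while Pdk2 and Ucp2 had none. By time, 3 calls fell at 1 h, 10 at 3 h, 3 at 6 h and none at 24 h. The share of all genes called was also highest at 3 h in each tissue, from 0.506% in brain to 11.6% in lung. It ran from 0.00744% (blood) to 5.8% (lung) at 1 h, and was at most 0.35% at 6 h and 0.0819% at 24 h. A peak at 3 h is thus not particular to the members. The groups did not overlap in 15 of the 16, and in 27 of the 184, where the share over all genes was 11.5%.

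**Figure D1:**
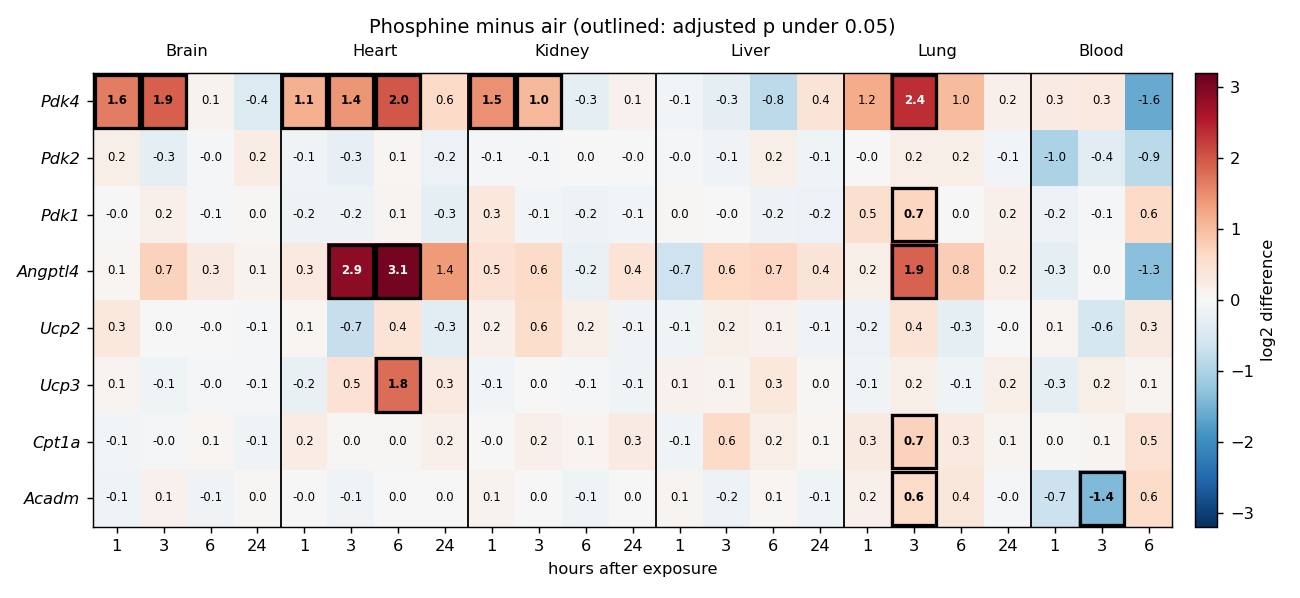
Heat map of the log2 difference, phosphine minus air, for the 8 members (rows) in 23 comparisons of tissue and hour (columns), on a colour scale from blue (lower) through white to red (higher), with called differences outlined. The Pdk4 row is outlined in brain, heart, kidney and lung and not in liver or blood, and the fitted differences of Angptl4 in heart are 2.87 at 3 h and 3.07 at 6 h, with 1 air rat under a level of 4 at each hour.

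Pdk4 rose in 4 of the 5 solid tissues. It was higher in brain at 1 and 3 h, in heart at 1, 3 and 6 h, in kidney at 1 and 3 h and in lung at 3 h, between 2.07-fold (kidney, 3 h) and 5.14-fold (lung, 3 h). In these 8 comparisons no exposed rat lay below an air rat. Liver showed no call, with differences between -0.85 and 0.42.

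In brain at 1 h the 4 air rats had Pdk4 levels of 4.34, 5.13, 5.52 and 6.37, and the exposed rats 6.54, 6.98, 7.04 and 7.38. The lowest exposed rat lay just above the highest air rat, and the difference was 1.65 ± 0.29 (limma padj = 0.00708). At 3 h the air rats had 4.18, 4.80, 5.09 and 5.19 and the exposed rats 6.37, 6.71, 6.83 and 7.01, a gap of more than 1 log2 between the groups and a difference of 1.92 ± 0.29 (limma padj = 7.5e-04). Among all genes ordered by the size of their rise in brain, Pdk4 had rank 2 at 1 h and rank 3 at 3 h. It was the 1 member called in brain at each of these hours, where 0.149% and 0.506% of all genes were called. At 6 h the difference was 0.12 ± 0.35 and at 24 h -0.45 ± 0.29. No gene was called in brain at either later hour (0% of all genes by limma, with 5.64% and 3.79% at an unadjusted p under 0.05). The difference changed with time (limma F, padj = 0.0146; 0.0893% of all genes), and this held without each of the 30 solid-tissue rats in turn (highest padj = 0.0418).

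The brain call at 1 h was lost without air Rat721, whose level of 4.34 was the lowest (1.31, padj = 0.0502), and in a fit of only the 2 groups (padj = 0.239). In the 3 h comparison the mean of 3 erythroid genes was 0.40 higher in the exposed brains, 3 of 3 genes, from 4.01 to 4.603 against 3.76 to 3.98 in air. The mean of the 5 neuron and glia genes was 0.15 higher, 4 of 5 genes, from 11.049 to 11.23 against 10.96 to 11.046. In the same brains the difference in the measure of RNA integrity described above was -0.155 (exact permutation test, padj = 0.329). The part of these in the Pdk4 result was not tested.

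In heart, the tissue with the highest Pdk4 level in air, air rats at 1 h had 9.49, 9.97, 10.17 and 10.27 and exposed rats 10.76, 11.06, 11.29 and 11.34. The difference of 1.14 ± 0.20 (limma padj = 0.00255) set the groups apart without overlap. At 3 h the air rats had 9.77, 9.86, 10.28 and 10.38 against 10.97, 11.53, 11.61 and 11.86, a difference of 1.42 ± 0.20 (limma padj = 2.71e-04). At 6 h both air rats, at 9.40 and 9.65, lay well below the 4 exposed rats at 11.29, 11.36, 11.66 and 11.71. That difference, 1.98 ± 0.24 (limma padj = 2.76e-04), was 3.94-fold.

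At 24 h the heart difference was 0.61 ± 0.20 (padj = 0.398), with air rats from 9.35 to 9.98 and exposed rats from 9.81 to 10.34, so that the groups overlapped. The overlap came from exposed Rat741 at 9.81, and the other exposed rats had 10.26 to 10.34. Without the arrays of Rat741 and Rat749, which carried genes of other organs, the difference was 0.74 ± 0.22 (limma padj = 0.248). The test between times was not passed in heart (padj = 0.132; 0.424% of all genes passed), so the differences at 1, 3 and 6 h are not shown to differ. Of all genes, 1.33% were called in heart at 1 h, 3.33% at 3 h, 0.35% at 6 h and 0.0819% at 24 h. The Pdk4 calls in heart held without each rat in turn. A fit of only the 2 groups gave padj = 0.056 at 1 h and 0.0736 at 3 h, the rat as a block gave 0.0541 at 1 h, and without Rat729, whose heart array carried hepatocyte genes, the 3 h difference was 1.59 (padj = 1.38e-04).

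**Figure D2:**
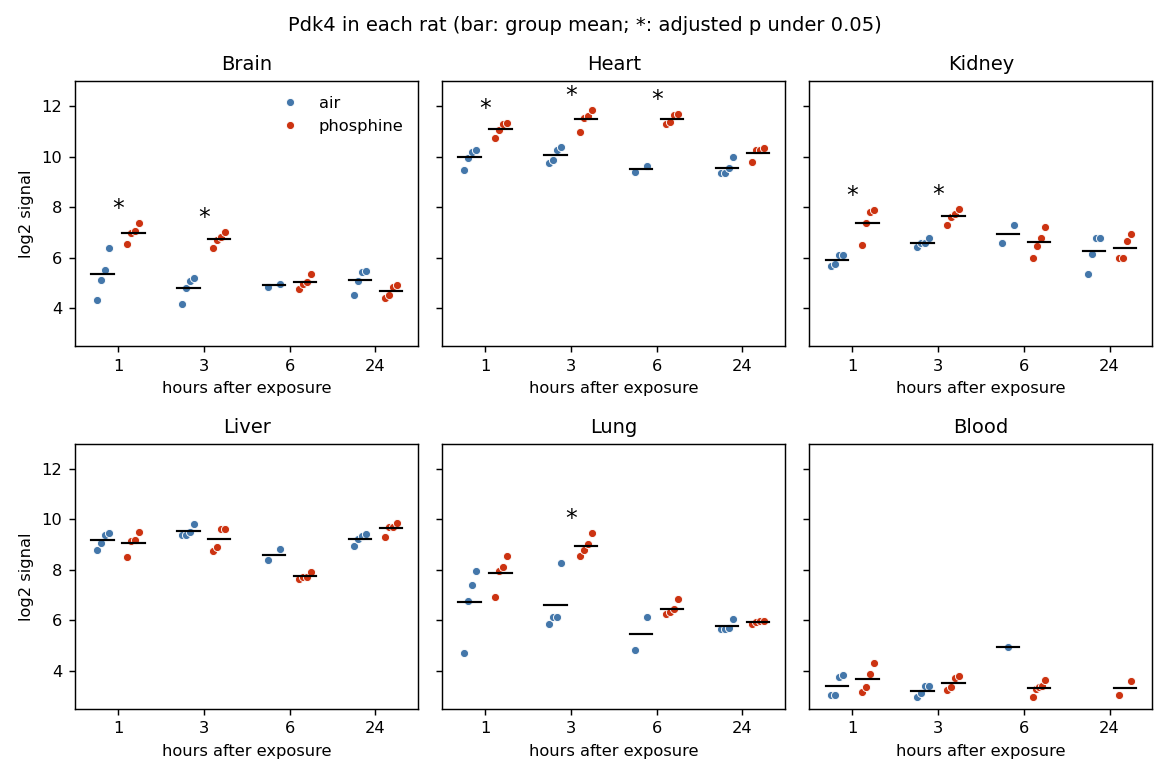
Pdk4 log2 signal of every rat (points; blue air, red phosphine) by hours after exposure in 6 tissues, with bars at the group means and asterisks at adjusted p under 0.05. Exposed rats sit above all air rats in brain, heart, kidney and lung where marked, while in liver at 6 h the 4 exposed rats sit below both air rats.

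In kidney at 1 h the air rats had Pdk4 levels of 5.69, 5.76, 6.12 and 6.12 and the exposed rats 6.51, 7.37, 7.82 and 7.88. The exposed rats spread over more than 1 log2, and the difference was 1.47 ± 0.31 (limma padj = 0.00718). At 3 h the air rats had 6.44, 6.59, 6.60 and 6.77 and the exposed rats 7.31, 7.62, 7.74 and 7.93, a smaller and more even difference of 1.05 ± 0.31 (limma padj = 0.0381). At 6 and 24 h the groups overlapped, with differences of -0.32 ± 0.37 and 0.13 ± 0.31. The other Pdk4 probe set gave -0.44 at 6 h, without overlap. Pdk4 was the 1 member called in kidney at 1 h and at 3 h, where 3.12% and 6.39% of all genes were called, against 0.35% at 6 h and 0% at 24 h (limma; 5.5% at an unadjusted p under 0.05).

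The kidney call at 3 h was close to the threshold. It was lost without any 1 of Rat728, Rat730, Rat731, Rat732, Rat733, Rat738 and Rat739, with padj up to 0.102 and differences from 0.95 to 1.10, and held without Rat729. The rat as a block gave padj = 0.14, and a fit with trended, robust variances padj = 0.0517. The call at 1 h held without each rat, was 1.54 without air Rat720 (padj = 0.0151), and had padj = 0.0863 with only the 2 groups in the fit.

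In lung the air rats themselves were spread widely. At 1 h they had 4.70, 6.76, 7.41 and 7.97 against 6.93, 7.97, 8.11 and 8.55 in exposed rats, and the difference of 1.18 ± 0.51 was not called (padj = 0.208; 5.8% of all genes were). Without exposed Rat716, whose lung array carried hepatocyte genes, it was 1.5001 ± 0.45 (limma padj = 0.0583). It was called with the rat as a block (1.18, limma padj = 0.0395) and with the air of all times pooled (1.66, limma padj = 0.00962). At 3 h air Rat733 had 8.29 and the other air rats 5.87, 6.12 and 6.13, while the exposed rats had 8.54, 8.80, 9.04 and 9.47. The difference of 2.36 ± 0.51 (limma padj = 0.00295) was the largest of Pdk4 in any tissue. Without the 3 arrays that carried skeletal muscle genes, which included the highest air rat and the highest exposed rat (Rat729), it was 2.67 ± 0.54 (padj = 0.00507). At 6 h the exposed rats, from 6.24 to 6.85, lay above both air rats, at 4.82 and 6.12. That difference of 1.00 ± 0.63 was not called (limma padj = 0.703), and the other Pdk4 probe set gave 0.74, also without overlap. At 24 h the difference was 0.17 ± 0.51. Of all genes, 0.0967% and 0.00744% were called at 6 and 24 h.

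In liver the second highest Pdk4 levels in air were found, 9.21 ± 0.37 (SD, n = 14). At 1 h air rats ranged from 8.79 to 9.47 and exposed rats from 8.52 to 9.51, so that exposed rats lay on both sides of the air rats. At 3 h the ranges were 9.39 to 9.82 in air and 8.74 to 9.64 after phosphine. The exposed rats at 8.74 and 8.91 lay below all air rats, and no exposed rat lay above the highest air rat. The other Pdk4 probe set gave -0.63 at 3 h, without overlap. At 6 h the air rats had 8.39 and 8.81 and the exposed rats 7.65, 7.71, 7.72 and 7.92, without overlap and in the direction opposite to heart and lung at that hour. That difference of -0.85 ± 0.25 was not called (limma padj = 0.221 over all genes). With the air rats of all times pooled it was -1.46 (padj = 1.88e-05), and in air liver itself the 6 h mean of 8.60 lay below those of 9.17, 9.53 and 9.23 at 1, 3 and 24 h (F, padj = 0.489). No member was called in liver at any hour, where 0.335%, 3.85%, 0.223% and 0% of all genes were called at 1, 3, 6 and 24 h (limma; 7.14% at an unadjusted p under 0.05 at 24 h).

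In blood Pdk4 signals were low, from 2.97 to 3.83 in air and 3.18 to 4.32 in exposed rats at 1 and 3 h, and the groups overlapped. At 6 h the 1 air rat (Rat762) had 4.96 and the 5 exposed rats from 2.97 to 3.65, a difference of -1.62 ± 0.43 (padj = 0.132; 0.0113 with the rat as a block). The other Pdk4 probe set gave 1.198 there, the opposite sign, so no direction can be read in blood. In the 8 called comparisons the other probe set had the same sign, from 0.84 (kidney, 3 h, where its groups overlapped) to 2.52 (heart, 6 h).

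The Pdk4 difference depended on the organ. The test between the 5 solid tissues, with the rat as a random block, was passed at 3 h (padj = 7.09e-05; 15.7% of all genes) and at 6 h (padj = 0.00414; 1.5% of all genes), not at 1 h (padj = 0.076; 3.55%) or 24 h (padj = 0.861; 0.722%). Differences at 3 h ran from -0.30 in liver to 2.36 in lung, and at 6 h from -0.85 in liver to 1.98 in heart. The 1 h test was passed without Rat727 (padj = 0.0159) or Rat733 (padj = 0.0428) and without the arrays with RNA of another organ (padj = 0.0356). The 3 h result held without each rat (highest padj = 0.00195), and the 6 h result was lost without air Rat762 (padj = 0.281).

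The other 2 kinases gave mostly small differences. Pdk2 was called in no comparison in the fits per tissue: in the solid tissues its differences lay between -0.30 (brain, 3 h) and 0.23 (brain, 24 h), and the 95% interval in kidney at 3 h was -0.22 to 0.10. Its other probe set, given as values only, ranged in the solid tissues from -0.51 (heart, 3 h) to 0.46 (lung, 3 h). The groups of that probe set did not overlap in lung at 3 h, liver at 3 h (-0.38) and brain at 6 h (0.36). With the rat as a block, in the fit of all tissues together, Pdk2 was called in blood at 1 h (-1.03, limma padj = 4.18e-04). Its 2 probe sets had opposite signs there (-1.02 and 0.93 without the block). Pdk1 was called once, in lung at 3 h. The air rats there had 5.47, 5.62, 5.80 and 5.95 and the exposed rats 6.04, 6.41, 6.58 and 6.60, so that the groups nearly touched, and the difference was 0.70 ± 0.20 (limma padj = 0.0266). At 1 h it was 0.51 ± 0.20 in lung (padj = 0.164). The Pdk1 call was lost without any 1 of Rat728, Rat729, Rat730, Rat732 and Rat733, with differences from 0.62 to 0.70 and padj up to 0.0887. Without the 3 arrays with skeletal muscle genes it was again 0.70 and padj was 0.149.

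Angptl4 rose in heart at 3 and 6 h and in lung at 3 h. Some air rats there had levels under 4, where signal and background cannot be told apart: 1 of 4 and 1 of 2 in heart at 3 and 6 h and 2 of 4 in lung. With those values set to 4 the estimated rises were 6.56-fold and 6.78-fold in heart and 3.57-fold in lung. This limits the part of the low signals only and not the spread between rats. In liver, where its air level was the highest, no difference was called.

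In heart at 1 h air rats had 3.83, 4.47, 4.67 and 4.75 and exposed rats 3.94, 4.37, 5.29 and 5.34, with overlapping groups and a difference of 0.30 ± 0.57. At 3 h the air rats had 3.37, 4.02, 5.11 and 5.39 and the exposed rats 6.17, 7.04, 7.75 and 8.41. Both groups spread over about 2 log2, yet every exposed rat was above every air rat, and the difference was 2.87 ± 0.57 (limma padj = 0.0054). At 6 h the 2 air rats had 3.39 and 4.58 and the exposed rats 6.55, 6.57, 7.01 and 8.08, a difference of 3.07 ± 0.69 (limma padj = 0.0486). At 24 h exposed Rat741 had 7.11 and the other exposed rats 4.51 to 5.11, against 3.27 to 5.19 in air. Rat741 carried hepatocyte genes 7.61 above the heart median, and the 24 h difference was 1.37 ± 0.57 with it (padj = 0.533) and 0.78 ± 0.60 without the arrays of Rat741 and Rat749 (padj = 0.854).

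The highest exposed heart at 3 h was also that of Rat729, which carried hepatocyte genes, and liver is where Angptl4 is highest. Without it the difference was 2.52 ± 0.53 (padj = 0.012), still 1 of the calls. At 6 h the mean of the 8 hepatocyte genes was 7.15 to 7.21 in air and 3.71 to 7.96 after phosphine. The mean of the 6 adipocyte genes overlapped at 3 h (3.56 to 5.98 in air and 4.32 to 6.94 exposed, 6 of 6 genes higher) and at 6 h (4.61 to 6.14 and 3.56 to 6.23, 1 of 6 higher). The part of these lists in the result was not tested. The 6 h call, just under the threshold, was lost without any 1 of the 6 rats (Rat758, Rat760, Rat761, Rat762, Rat763 and Rat789), with differences from 2.47 to 3.66 and padj up to 0.63. With only the 2 groups in the fit padj was 0.121 at 3 h and 0.165 at 6 h, where trended, robust variances gave 0.0635.

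In lung at 3 h the air rats had Angptl4 levels of 3.86, 3.93, 4.55 and 5.20 and the exposed rats 5.73, 6.18, 6.58 and 6.60. The groups did not overlap and the difference was 1.89 ± 0.43 (limma padj = 0.00465), or 2.07 ± 0.56 without the arrays with skeletal muscle genes (padj = 0.0315). At 1, 6 and 24 h the lung differences were 0.18, 0.78 and 0.22, none called. In brain at 3 h the exposed rats, from 5.20 to 5.68, lay above all air rats, from 4.52 to 4.85, by 0.75 ± 0.21, which was not called (padj = 0.137). The kidney difference at 3 h was 0.62 ± 0.22 (padj = 0.0903).

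In liver, air rats at 6 h had Angptl4 levels of 6.80 and 6.88 and exposed rats 7.28, 7.39, 7.64 and 7.66, all higher, by 0.65 ± 0.38 (padj = 0.65). At 1 h the sign was opposite (-0.66 ± 0.31, padj = 0.727), with overlapping groups. The Angptl4 difference was unequal across the solid tissues at 3 h (padj = 0.00138) and at 6 h (padj = 0.00641). The 6 h test was lost without Rat761 (padj = 0.0525), Rat762 (padj = 0.456) or Rat763 (padj = 0.0691).

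**Figure D3:**
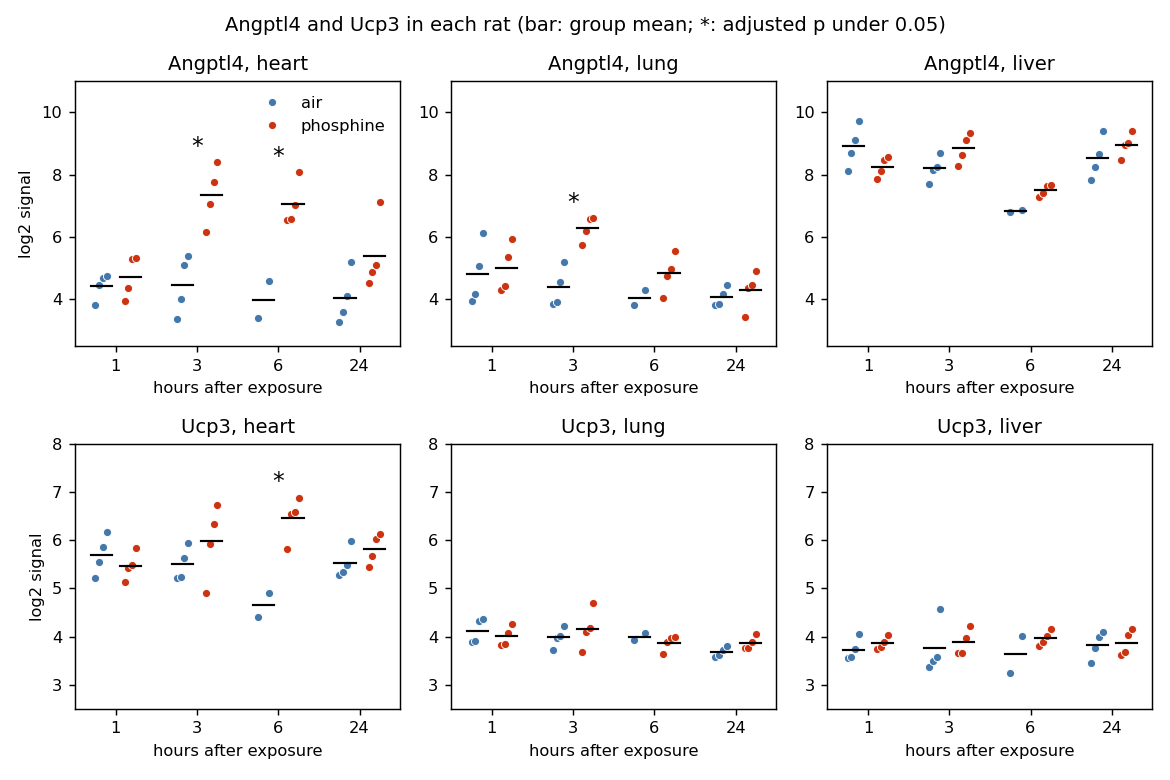
Log2 signal of Angptl4 (upper row) and Ucp3 (lower row) in every rat by hours after exposure in heart, lung and liver, with blue for air, red for phosphine, bars at group means and asterisks at adjusted p under 0.05. Angptl4 stands out in exposed hearts at 3 and 6 h and exposed lungs at 3 h, and Ucp3 in exposed hearts at 6 h.

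Ucp3 rose in heart at 6 h. The 2 air rats had 4.41 and 4.91 and the exposed rats 5.82, 6.54, 6.58 and 6.87, a difference of 1.79 ± 0.37 or 3.47-fold (limma padj = 0.0248). The other Ucp3 probe set gave 2.05. The air rats at 6 h lay below the air rats of the other hours, which had 5.21 to 6.17, and exposed rats at 6 h overlapped that range. With the air hearts of all times pooled the difference was smaller, 1.01, and was still called. Air levels of Ucp3 in heart did not pass the test between times (padj = 0.666; 0.104% of all genes passed). At 1, 3 and 24 h the heart differences were -0.23, 0.47 and 0.30, with overlapping groups.

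The Ucp3 call in heart was lost without any 1 of Rat760, Rat761, Rat762, Rat763 and Rat789, with differences from 1.55 to 2.04 and padj up to 0.639, and had padj = 0.165 with only the 2 groups in the fit. The cardiomyocyte genes were lower in the exposed hearts at 6 h by 0.15 (12.51 to 12.85 against 12.88 to 12.91 in air; 2 of 5 genes higher), and the part of this in the heart results was not tested. Among solid tissues the Ucp3 difference was unequal at 6 h (padj = 1.63e-04), and this was lost without air Rat763 (padj = 0.153). In the other solid tissues Ucp3 levels were between 2.93 and 4.70 in all rats and no difference was called.

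Ucp2 was called nowhere. Its largest solid-tissue differences were -0.73 ± 0.32 in heart at 3 h (padj = 0.23) and 0.55 ± 0.20 in kidney at 3 h (padj = 0.0934). In that heart comparison air Rat733 had 9.32 and the other air rats 8.12 to 8.13, while exposed Rat729, whose array carried hepatocyte genes, had 6.65 and the others 7.69 to 8.32. In kidney the air rats had 5.31 to 5.598 and the exposed rats 5.74 to 6.67 without overlap. The test between solid tissues at 3 h gave padj = 0.0552 for Ucp2, and it was passed without any 1 of Rat728, Rat731, Rat738, Rat760, Rat762 and Rat763 (padj from 0.0251 to 0.044).

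Cpt1a and Acadm, the enzymes of fatty acid import and oxidation, rose in lung at 3 h. For Cpt1a the air rats had 7.96, 7.98, 8.13 and 8.27 and the exposed rats 8.51, 8.81, 8.97 and 8.98, apart by 0.73 ± 0.14 (limma padj = 8.41e-04), and its other probe set gave 1.03. For Acadm the air rats had 9.38, 9.51, 9.58 and 10.33 and the exposed rats 10.06, 10.33, 10.37 and 10.39. Its groups overlapped through air Rat733, and the difference was 0.59 ± 0.17 (limma padj = 0.0221). Without the 3 arrays with skeletal muscle genes, Rat733 among them, the differences were 0.87 ± 0.17 for Cpt1a (padj = 0.00502) and 0.83 ± 0.14 for Acadm (padj = 0.00157).

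Lung at 3 h was thus the comparison with most members called, 5 of 8, all higher. Of all genes 11.6% were called there, 785 higher of 1559. The median over the 8 members was 0.64 against 0.01 over all genes. The mean of the 3 erythroid genes was 0.41 higher in the exposed lungs (6.48 to 6.80 against 5.82 to 6.44; 3 of 3 genes). The 6 adipocyte genes averaged 3.71 to 6.87 in exposed and 3.51 to 6.29 in air lungs (6 of 6 higher), and the part of either in these results was not tested. The Acadm call was lost without any 1 of Rat728, Rat730, Rat732, Rat738 and Rat739, with differences from 0.48 to 0.56 and padj up to 0.0934, and with only the 2 groups in the fit (padj = 0.0928). The Cpt1a call was kept without each rat and lost with the rat as a block (padj = 0.173).

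**Figure D4:**
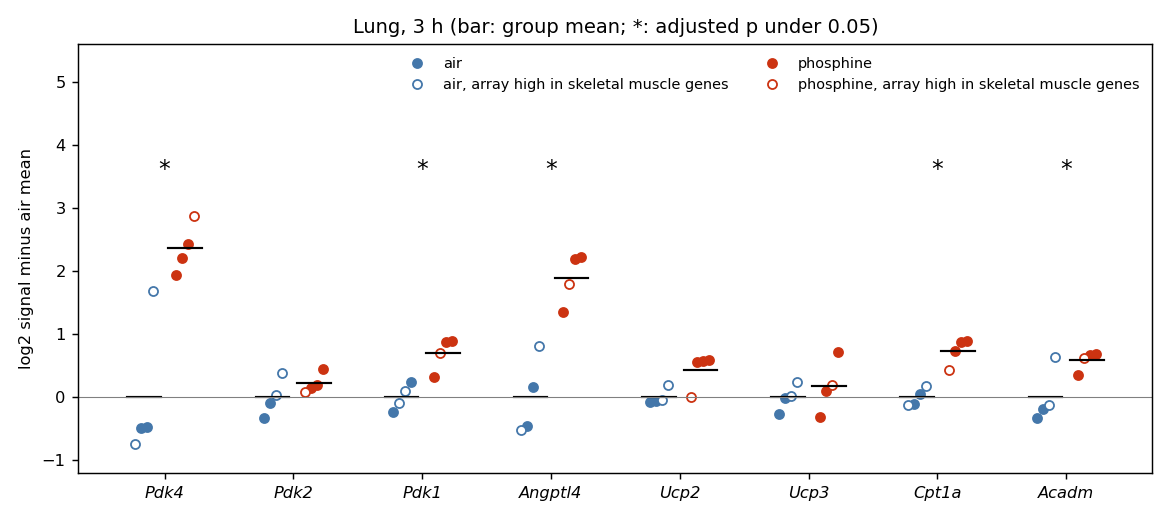
Log2 signal minus the air mean for the 8 members in lung at 3 h, 1 point per rat (blue air, red phosphine; open symbols are the 3 arrays high in skeletal muscle genes), with bars at group means and asterisks at adjusted p under 0.05. The marked members are Pdk4, Pdk1, Angptl4, Cpt1a and Acadm, and the air rat that lies high for Pdk4 and Acadm is Rat733, 1 of the open symbols.

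In liver at 3 h the Cpt1a levels of the exposed rats, 10.15, 10.18, 10.34 and 10.59, lay above those of the air rats, 9.55, 9.68, 9.69 and 9.87, by 0.62 ± 0.22, which was not called (padj = 0.134; 0.53 without Rat730, whose liver array carried skeletal muscle genes). Acadm in the same livers was 11.46 to 11.70 in exposed and 11.73 to 11.90 in air rats, a difference of -0.19 ± 0.07 that was not called (padj = 0.184; -0.13 without Rat730). The only decrease that was called was that of Acadm in blood at 3 h. The air rats had 7.62, 7.66, 8.10 and 8.37 and the exposed rats 5.43, 6.81, 6.90 and 6.997, with exposed Rat729 the lowest by far, and the difference was -1.40 ± 0.37 (limma padj = 0.0268). Of all genes 6.6% were called in blood at 3 h, 108 of 887 higher, and 0.00744% and 0.0521% at 1 and 6 h. At 1 h the Acadm difference was -0.70 ± 0.37 with overlapping groups (limma padj = 0.688). With the rat as a block, where all tissues shared 1 spread, it was -0.70 ± 0.17 and was called (limma padj = 9.41e-04). The 3 h call was lost without Rat729 (-1.04, padj = 0.124), Rat738 (-1.35, padj = 0.0657) or Rat739 (-1.26, padj = 0.0921). It was also lost after quantile normalization within the tissue (-0.97, padj = 0.114), with the air of all times pooled (-1.02, padj = 0.0971) and with only the 2 groups in the fit (padj = 0.0526). The leukocyte genes averaged 9.04 to 9.45 in these exposed and 9.39 to 9.93 in air samples, and the erythroid genes 12.15 to 12.42 and 11.99 to 12.31. The alveolar genes were higher in the exposed samples, 5 of 5 (4.63 to 5.10 against 4.35 to 4.39). The part of these lists was not tested.

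Differences between organs at 3 h were also found for Acadm (padj = 1.33e-04), Cpt1a (padj = 0.0146) and Pdk1 (padj = 0.0174), so that 5 of 8 members passed at 3 h and 3 of 8 at 6 h, none at 1 or 24 h. Of all genes 15.7% passed at 3 h, 1.5% at 6 h, 3.55% at 1 h and 0.722% at 24 h. The Acadm test held without each rat (highest padj = 0.0063). The Cpt1a test was lost without Rat730 (padj = 0.0883) or Rat739 (padj = 0.0536), and the Pdk1 test without Rat729 (padj = 0.0908), Rat730 (padj = 0.0944) or Rat732 (padj = 0.14) and without the arrays with RNA of another organ (padj = 0.136). Between times, Pdk4 in brain was the 1 member called in any solid tissue, beside 1.75% of all genes in kidney, 0.476% in liver and 6.38% in lung. For Pdk4 in kidney padj was 0.079, and it was 0.0283 without Rat716 and 0.0323 without Rat750. Ucp3 in heart (padj = 0.15) passed without Rat729 (0.0412), and Acadm in lung (padj = 0.29) without Rat733 (0.0421).

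Levels in air rats gave the order of the tissues for each gene. Over the 14 air rats (9 for blood), mean Pdk4 levels were 9.82 ± 0.36 (SD) in heart, 9.21 ± 0.37 in liver, 6.36 ± 0.52 in kidney, 6.23 ± 1.05 in lung, 5.06 ± 0.55 in brain and 3.501 ± 0.63 in blood. Each differed from the next by the limma fit except kidney from lung (padj = 0.633). The blood place rests on the probe set used, since at 1 h the other Pdk4 probe set had 5.07 in air blood and 3.67 in air brain. The rise of Pdk4 thus occurred both in heart, where its level was already the highest, and in brain, where it was the lowest of the solid tissues.

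For Angptl4 the liver mean of 8.30 ± 0.84 stood 3.48 above brain (4.82 ± 0.37), and in the order brain, lung, kidney, blood and heart (4.27 ± 0.72) no neighbours passed the test. Pdk2 was highest in heart (10.7 ± 0.18) and kidney (10.6 ± 0.09), not told apart by the test, then in liver, brain, lung and blood. Pdk1 was highest in heart (9.85 ± 0.19), followed by liver, brain, lung, kidney and blood, each different from the next. Cpt1a was ordered from liver (9.95 ± 0.56) through kidney, heart, lung and brain to blood (5.77 ± 0.40), and Acadm from heart (12.1 ± 0.13) through kidney and liver, not told apart, to lung, brain and blood (7.55 ± 0.50). Ucp2 was highest in blood (11.4 ± 0.71), then heart, lung, liver and kidney, the last pair not told apart, and brain (4.81 ± 0.45). By the probe set used, Ucp3 was highest in blood (6.00 ± 0.54) and heart (5.44 ± 0.47). Lung, kidney and liver followed, among which no neighbours passed the test, and then brain. The 2 Ucp3 probe sets disagreed in blood, with phosphine minus air at 1 h of -0.30 for the one used and 0.21 for the other. At 6 h they gave 0.08 and -1.95, so the blood place rests on 1 probe set.

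Such differences between organs are common. The share of all genes called was 77.5% for brain against kidney, 84.3% for brain against liver, 76.5% for brain against lung and 90.1% for brain against blood. It was 69.8% for heart against kidney, 71.4% for heart against liver, 77.4% for heart against lung and 88% for heart against blood. It was 69.1% for kidney against liver, 71.3% for kidney against lung, 89.4% for kidney against blood, 80% for liver against lung and 89.5% for lung against blood. Whether the tissues were normalized together is not given in the sources used here, so the order across organs depends on the deposited scale.

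**Figure D5:**
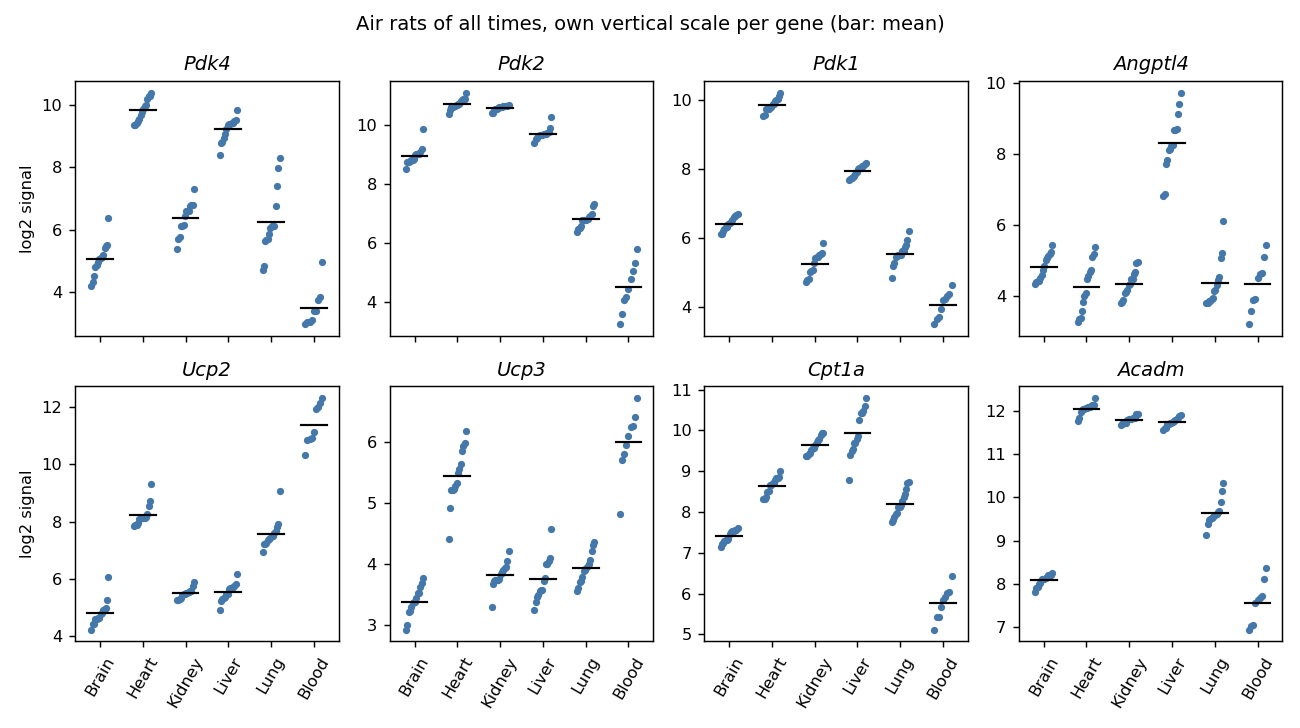
Log2 signal of each member in air rats of all hours (points) by tissue, with bars at the means and a vertical scale of its own for each gene. Pdk4 is highest in heart and liver, Angptl4 in liver, and Ucp2 and Ucp3 in blood.

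The air rats were also compared across hours. Cpt1a in lung was the 1 member that differed (padj = 0.0418; 1.67% of all genes in lung), with air means of 8.53, 8.08, 8.42 and 7.90 at 1, 3, 6 and 24 h. Of all genes 0% differed so in brain, 0.64% in kidney and 0.246% in liver. In air liver Angptl4 had means of 8.91, 8.20, 6.84 and 8.53 (padj = 0.0558) and Cpt1a of 10.27, 9.70, 10.70 and 9.49 (padj = 0.0881). The low Angptl4 and high Cpt1a values at 6 h come from 2 rats.

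Among 69 other measured genes of fuel use, from 10 lists with 75 genes listed, 29 calls were made over all comparisons. They were 1.83% of 1587 pairs of a gene and a comparison, near the 1.92% of all genes. Of these calls 20 lay in groups with arrays that carried RNA of another organ, and 16 of the 20 were kept without those arrays. In brain the 1 gene called was Slc2a1, the glucose transporter of the blood-brain barrier, which rose by 0.59 ± 0.09 at 1 h (limma padj = 0.00381) and 1.02 ± 0.09 at 3 h (limma padj = 3.81e-07). In heart 0 of 69 were called at any hour, beside 1.33%, 3.33%, 0.35% and 0.0819% of all genes at 1, 3, 6 and 24 h. With shares this low, the count does not set these genes apart from all genes. Pdk4, Angptl4 and Ucp3, which were called in heart, are members that were chosen with earlier results of these data known.

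In kidney at 3 h, 3 genes rose and 2 fell, 7.25% of the 69 beside 6.39% of all genes. Slc2a1 rose by 0.80, Pdp2, a phosphatase that reverses the action of the kinases, fell by 0.73, and Pex11a, a peroxisomal membrane protein, rose by 0.63. Pdp1, the other phosphatase of the complex, rose by 0.37 and Nr3c1, the glucocorticoid receptor, fell by 0.41, both named after their values were seen. At 1 h Pex11a rose by 0.67 (0.65 without Rat720, padj = 0.0801) and at 6 h Slc2a1 by 0.67. In liver, where no member was called, Ppargc1a, a coactivator of PPARs and of gluconeogenic genes, rose by 2.56 ± 0.42 at 1 h (limma padj = 0.00644). It was higher again at 3 h (limma padj = 1.06e-05), where 3 of 4 air rats were under 4 and the estimated rise was 9.70-fold with those values set to 4. Both calls were kept without the liver arrays of Rat719, Rat730 and Rat741. Foxo1, a forkhead factor of the fasting response, rose there by 1.17 and 1.23, the 1 h call being lost without those arrays (1.07, padj = 0.0634), and at 3 h Pnpla2, the adipose triglyceride lipase, rose by 0.88. At 1 h 2 of 69 rose and at 3 h 4 of 69, 2.9% and 5.8% beside 0.335% and 3.85% of all genes, and none fell. Adipocyte genes averaged 0.28 higher in the exposed livers at 3 h (4.79 to 4.98 against 4.49 to 4.74; 6 of 6) and 0.12 higher at 1 h (4.806 to 4.88 against 4.62 to 4.795; 4 of 6). Hepatocyte genes at 1 h were 12.80 to 12.87 against 12.73 to 12.77 (4 of 8 higher), and the measure of RNA integrity differed by -0.147. The part of these was not tested.

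In lung at 3 h, 8 of the 69 rose and 2 fell, 14.5% beside 11.6% of all genes, and the median difference was 0.21 against 0.01 over all genes. The 3 largest were Gpihbp1, the capillary anchor of lipoprotein lipase (1.10 ± 0.31), Pnpla2 (1.09 ± 0.15) and Lipe, hormone-sensitive lipase (0.89 ± 0.20), all kept without the 3 arrays with skeletal muscle genes. By list, 3 of 11 genes of fatty acid uptake and lipolysis rose and 1 fell, 2 of 4 genes of peroxisomal and omega oxidation rose, 1 of 14 of mitochondrial beta oxidation rose and 0 of 6 of the carnitine shuttle. From other lists, Pdha1 of the pyruvate dehydrogenase complex (0.44) and Mlycd of malonyl-CoA control (0.41) rose, and Nr3c1 fell (-0.47). These were named after their values were seen, and all were kept without the 3 arrays. Of the peroxisomal genes Acot1, named after its value was seen, was under 4 in all air lungs and 3 of 4 exposed lungs. The calls of Acot1 and of Mgll, the gene of lipolysis that fell, were lost without the 3 arrays (padj = 0.0921 and 0.0736). At 1 h Ppargc1a (0.98), Pex11a (0.85) and Pdha1, a subunit of pyruvate dehydrogenase (0.28), rose in lung, beside 5.8% of all genes, and were kept without Rat716. In blood at 3 h Ppard, a PPAR, rose by 1.21 ± 0.30. It was the only one of the 69 called there, 1.45% beside 6.6% of all genes.

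Across the 20 solid-tissue differences, the genes whose pattern was most like that of Pdk4 by Pearson r were Anxa3 (0.83), C1qc (0.77), Dhrs3 (0.75), Cebpd (0.74) and Tnfaip6 (0.74), out of 12192 genes ranked. For Angptl4 they were Trh (0.82), Uck2 (0.82), Pard6b (0.82), Xdh (0.81) and Ercc1 (0.80). Between members r was 0.54 for Pdk4 with Angptl4, 0.73 for Angptl4 with Ucp3 and -0.11 for Pdk4 with Pdk2. The 20 points share rats within a time, so these are descriptions of likeness.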

How the data were processed

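Total RNA of 6 tissues was hybridised to single-colour Affymetrix 3′ arrays, 1 array per sample. The authors deposited log2 signals per probe set, made with RMA and Partek per the submitters' processing notes; versions, and whether tissues were normalized together, are not given in the sources used here. Of 31139 probe sets 97 were controls, 19069 named 1 gene, 572 several and 11401 none in the platform annotation; 13439 genes were tested by the probe set with the highest mean.

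Group means were fitted per tissue with limma 3.58.1 (R 4.3.3) and empirical Bayes, p-values were adjusted by Benjamini-Hochberg over all genes, and calls were made at 0.05. Differences between times and between solid tissues were tested with moderated F tests, the latter with the rat as a random block (correlation 0.0268). No cutoff on low signal was used. The code was tested on simulated data. Same-numbered samples are tissues of 1 rat, so no number pairs phosphine with air.

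The members and gene lists were chosen with earlier results of these data known. Named genes were the members, the 3 called list genes with the largest difference per comparison, and the 5 genes most like Pdk4 and Angptl4. Pdp1, Nr3c1, Acot1, Mgll, Mlycd and, in lung at 3 h, Pdha1 were named after their values were seen. Where signals lay under 4, folds were estimated with those signals set to 4, which does not allow for the spread between rats. Alternatives were quantile normalization, median centring, removal of dim genes, the mean of probe sets, trended variances, only the 2 groups, pooled air, the rat as a block, leaving out arrays with RNA of another organ, and leaving out each rat. Leaving out rats in the F tests was added after the data were seen.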

Additional observations from a re-analysis of the deposited data

Results flagged for a closer look

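Samples that stood apart from the rest of their group numbered 24 in 320 combinations of a member and a group (8 members in 40 groups of 4 or 5 arrays), 7.5%, where chance gives about 1 in 20. They are given as log2 signals. For Pdk4 they were 8.29 in lung of air Rat733 at 3 h, 9.81 in heart of exposed Rat741 at 24 h and 6.06 in lung of air Rat744 at 24 h. For Pdk2 they were 7.35 in lung of exposed Rat716 and 8.78 in brain of air Rat727 at 1 h, and 10.39 in kidney of exposed Rat741 and 6.47 in lung of air Rat750 at 24 h. For Pdk1 they were 5.56 in kidney of air Rat720 at 1 h and 5.44 in lung of air Rat750 at 24 h, and for Angptl4 4.68 in kidney of air Rat745 at 24 h. For Ucp2, all at 3 h, they were 7.31 in lung of exposed Rat729, 9.32 in heart of air Rat733 and 7.49 in lung of air Rat738.

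For Cpt1a they were 9.78 in liver of air Rat727 at 1 h, 9.47 in heart of exposed Rat729 and 7.52 in brain of air Rat733 at 3 h, 7.22 in brain of air Rat744 and 9.90 in kidney of air Rat745 at 24 h, and 4.58 in blood of exposed Rat789 at 6 h. For Acadm they were 11.75 in kidney of exposed Rat710 at 1 h, 5.43 in blood of exposed Rat729, 11.46 in liver of exposed Rat730 and 11.70 in kidney of air Rat732 at 3 h, and 12.13 in heart of exposed Rat761 at 6 h.

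Effects of phosphine that differed between times or organs by the limma F test were also singled out. Between times, Pdk4 in brain had an adjusted p of 0.0146. Between solid tissues at 3 h the adjusted p was 7.09e-05 for Pdk4, 0.0174 for Pdk1, 0.00138 for Angptl4, 0.0146 for Cpt1a and 1.33e-04 for Acadm. At 6 h it was 0.00414 for Pdk4, 0.00641 for Angptl4 and 1.63e-04 for Ucp3.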

How the results depend on the processing

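No called difference changed sign under any alternative. Of the 16 calls, median centring and the mean of probe sets kept 16, quantile normalization 15, pooled air 15, removal of dim genes 15 of the 15 it could test, trended variances 14, the rat as a replicate block 13 and the fit of only the 2 groups 7; leaving out arrays with RNA of another organ kept 12 of 13. The fit of only the 2 groups left 0 members called in brain at 1 h, heart at 1 and 3 h, kidney at 1 h and blood at 3 h, 1 in heart at 6 h and liver at 3 h, and 2 in brain at 3 h. The replicate block left 0 in heart at 1 h and kidney at 3 h, and gave 1 in lung at 1 h, 2 in blood at 1 h and 1 in blood at 6 h. Trended variances left 0 in kidney at 3 h and quantile normalization 0 in blood at 3 h. Pooled air gave 3 in kidney at 3 h, liver at 6 h and lung at 1 h, 1 in lung at 6 h and 0 in blood at 3 h. Without arrays with RNA of another organ, 1 member passed the test between times in heart and in lung, and 1 the test between tissues at 1 h. Leaving out 1 rat at a time gave 0 to 1 calls in brain at 1 h, lung at 1 h and blood at 3 h, 1 to 2 in heart at 6 h, 0 to 2 in kidney at 3 h and 3 to 5 in lung at 3 h. It gave 0 to 1 for the test between times in heart, kidney and lung, and 0 to 1, 3 to 6 and 1 to 3 for the test between tissues at 1, 3 and 6 h. The cause was not tested. Rats were few, 2 in air at 6 h, and low signals have no detection call.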

Other observations

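Blood of 2 exposed rats at 24 h had no air control at that hour, and its log2 signals are given as values. They were 3.06 and 3.60 for Pdk4, 4.21 and 4.86 for Pdk2, 3.81 and 4.97 for Pdk1, 4.19 and 4.52 for Angptl4, 11.04 in both rats for Ucp2, 5.76 and 5.85 for Ucp3, 4.66 and 6.13 for Cpt1a, and 7.68 and 7.77 for Acadm.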
